A study of Homo sapiens with 2 samples.

Results

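The genes described here are 10 of the 60623 gene entries counted in HepG2 cells: the metallothioneins MT2A, MT1E, MT1F, MT1G, MT1M and MT1X, the metal-sensing transcription factor MTF1, the zinc exporter SLC30A1, the manganese exporter SLC30A10 and the metal importer SLC39A14. They were taken by name, through the Ensembl identifiers of the count tables, and not by a cut-off on measured values. Earlier results of these data were known when they were chosen. All 10 were found once and all 10 had enough counts to be compared. HepG2 is a human hepatocellular carcinoma line, here of genotype WT in both groups, grown as a monoculture. In both groups the cells were loaded with 1 mM free fatty acids (FFA), oleic and palmitic acid bound to albumin, for 24 h, a culture model of steatosis. One group received nothing further (FFA), and the other was also given, for 24 h, 10 μM 9-cis-retinoic acid (FFA + 9-cis-RA), an agonist of the RXR and RAR nuclear receptors, so the comparison asks how transcript levels differ in fat-loaded cells given the retinoid. Cells without FFA were not analysed here. Each group had 1 library, both from the same labelled batch.

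Metallothioneins are small cysteine-rich proteins that bind zinc and copper and buffer their free levels in the cell. MTF1 senses zinc: when zinc rises it binds metal response elements in the promoters of the metallothionein genes and of SLC30A1, and raises their transcription. Liver cells are among the main sites of metallothionein synthesis, and they exchange zinc and manganese with the blood through SLC30 exporters, which lower cytosolic metal, and SLC39 importers, which raise it.

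The promoters are shown first, because the metal response element is the sequence that MTF1 binds. The element was searched as TGCACNC or TGCGCNC on both strands, with overlapping matches counted once, in RefSeq promoter windows on GRCh38.p14. A promoter entry was matched for 5 of the 10 genes: MT2A, MT1X, SLC30A1, MTF1 and SLC30A10. MT1H, another metallothionein gene of the same cluster, is printed beside them because it had the largest difference between the libraries in the family. The 250 bases before each start are given from 5′ to 3′ on the gene's strand, with matches to the element in capitals, a match on the other strand showing as its reverse complement.
MT2A, chr16:56608334-56608583, plus strand: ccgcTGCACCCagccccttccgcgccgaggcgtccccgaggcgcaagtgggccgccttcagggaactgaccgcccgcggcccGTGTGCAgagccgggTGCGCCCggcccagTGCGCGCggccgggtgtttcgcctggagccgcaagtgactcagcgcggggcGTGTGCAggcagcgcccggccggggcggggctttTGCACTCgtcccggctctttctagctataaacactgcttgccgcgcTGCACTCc
MT1X, chr16:56682220-56682469, plus strand: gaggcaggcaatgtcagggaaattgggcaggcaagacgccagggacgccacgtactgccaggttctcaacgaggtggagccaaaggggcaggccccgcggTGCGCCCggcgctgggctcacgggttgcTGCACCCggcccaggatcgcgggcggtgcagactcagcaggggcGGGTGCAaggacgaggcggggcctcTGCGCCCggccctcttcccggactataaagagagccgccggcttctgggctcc
MT1H, chr16:56669564-56669813, plus strand: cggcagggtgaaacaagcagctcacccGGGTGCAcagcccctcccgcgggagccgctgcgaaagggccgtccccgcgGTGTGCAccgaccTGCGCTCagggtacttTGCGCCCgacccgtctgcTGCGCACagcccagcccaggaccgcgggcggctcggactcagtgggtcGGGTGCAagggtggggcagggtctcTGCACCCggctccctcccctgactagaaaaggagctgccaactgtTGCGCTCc
SLC30A1, chr1:211579162-211579411, minus strand: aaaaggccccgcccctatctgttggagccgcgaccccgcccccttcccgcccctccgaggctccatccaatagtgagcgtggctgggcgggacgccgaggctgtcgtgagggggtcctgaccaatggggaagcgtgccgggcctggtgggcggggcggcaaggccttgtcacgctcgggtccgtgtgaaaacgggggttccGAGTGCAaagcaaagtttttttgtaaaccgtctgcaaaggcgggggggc
In these 250 bases MT2A held 7 matches, MT1X held 4, MT1H held 8 and SLC30A1 held 1. MTF1 held 0, and SLC30A10 held 0 in each of its 2 windows. Among all 35116 promoters, 24.8% held at least 1 match over the same 250 bases and 1.05% held 3 or more. MT1X and MT1H each had a match on the minus strand at -78 and one on the plus strand at -53, counted as the first base of the match from the start, and MT1B had them at -79 and -53. MT2A had a minus-strand match at -88 and a plus-strand match at -54. MT2A and MT1H also had a match at -8. MT4, a metallothionein gene with 0 counts here, had 3 matches, on the minus strand at -209 and -90 and on the plus strand at -196. The MT4 match at -90 lay close to the place of the MT2A match at -88. A match describes the letters in the window and does not show that the site is bound.

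Gene counts totalled 60821539 for FFA and 57669670 for FFA + 9-cis-RA, and 20431 genes reached 10 counts over both libraries and were compared. Counts were divided by DESeq2 size factors, and the log2 fold change (log2FC) is FFA + 9-cis-RA against FFA after a pseudocount of 1, so a negative value is a lower level in the FFA + 9-cis-RA library. A single library stands for each group, so differences have no replicate check and carry no p-value or SD. Intervals are exact 95% intervals (Clopper-Pearson), which cover counting error only and compare these 2 libraries, not the conditions. Because the samples are bulk RNA, a transcript carried by fewer cells and one at a lower level per cell cannot be told apart. The retinoid target CYP26A1 had 4 and 709 counts, which goes with the labels. The 10 listed hepatocyte markers were all compared, 3 higher and 7 lower, with a sum of 16020 and 12994 CPM (counts scaled by the library total). Their levels were uneven, with TTR at 341 and 278 counts and SERPINA1 at 294592 and 296345. AFP and albumin (ALB) were the lowest of them, with log2FCs of -0.99 and -0.70. The 3 higher ones were FGB at 0.84 and APOA1 and SERPINA1, both at 0.04. Markers of the other liver cell types were at low sums, at 21.3 and 14.96 CPM for 8 stellate and fibroblast genes, 14.3 and 6.64 CPM for 7 endothelial genes and 7.497 and 8.08 CPM for 8 macrophage and leukocyte genes, and DCN, LRAT, PTPRC, KDR and TEK were at 0 in both libraries. The 6 cholangiocyte markers summed to 2996 and 1796 CPM, mostly SPP1, with CFTR at 0. The hepatocyte, stellate and fibroblast, endothelial and cholangiocyte sums were lower in the FFA + 9-cis-RA library, as the metallothioneins were. The differences in these sums lay mostly in a few genes. These were AFP and ALB, ACTA2 (1186 and 773 counts), LYVE1 (609 and 223) and SPP1 (158202 and 82857). In this monoculture these sums describe transcripts of the HepG2 line and not amounts of other cell types. Their part in the result was not tested.

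All 6 metallothioneins and both SLC30A10 and SLC39A14 were lower in the FFA + 9-cis-RA library, while the sensor MTF1 and the zinc exporter SLC30A1 were higher; SLC39A14 changed direction with another scaling. Of the 10 genes, 8 were lower and 2 higher, and their median log2FC was -0.70 beside -0.020 over all compared genes, of which 9751 were higher and 10680 lower. The counting interval lay wholly below 0 for 8 genes, as it did for 25.7% of all compared genes, and wholly above 0 for 2, as it did for 22.5% of all. MT1M and MT1E were below -1, where 4.9% of all compared genes lay, and none of the 10 was above 1, where 3.37% lay. MT1E came to -0.98 with the gene length trend removed and to -0.99 with counts per kilobase scaled to the same sum, which leaves 1 gene below -1. The lowest of the 10, MT1M, had 2.96% of compared genes below it, and the highest, SLC30A1, had 88.9% below it.

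**Figure D1:**
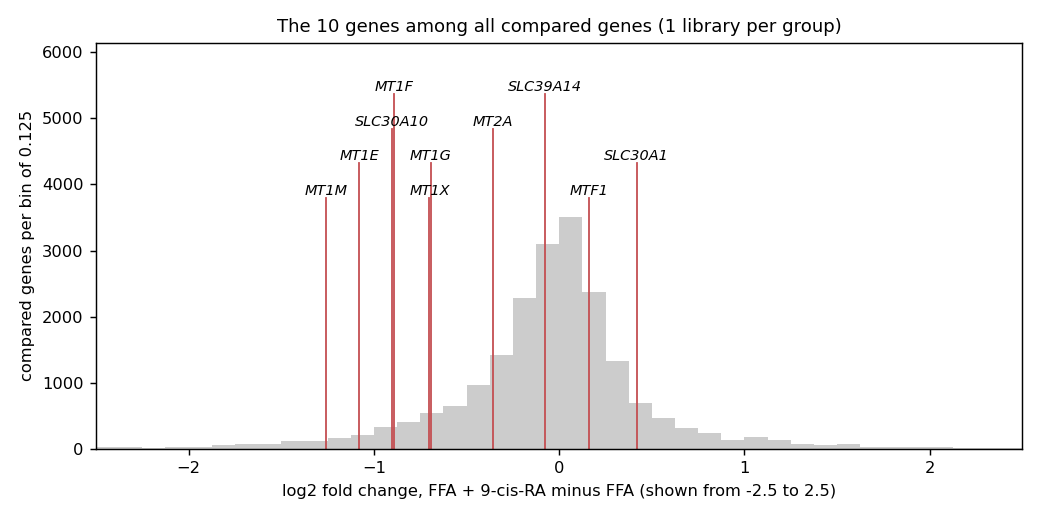
Histogram of log2FCs (x axis, FFA + 9-cis-RA minus FFA) of the 20431 compared genes (y axis, genes per bin), with the 10 genes drawn as red lines whose height has no meaning. The 6 metallothioneins and SLC30A10 lie to the left between -1.26 and -0.36, SLC39A14 lies near 0, and MTF1 and SLC30A1 lie to the right at 0.16 and 0.42.

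All 6 metallothioneins of the set were lower in the FFA + 9-cis-RA library, with log2FCs from -1.26 to -0.36 and a median of -0.80. MT2A, the most abundant isoform and the one widely expressed across tissues, was counted 7934 times in FFA and 6078 times in FFA + 9-cis-RA. Its log2FC was -0.36 (interval -0.41 to -0.31), the smallest of the 6. MT1G had 5986 and 3629 counts, a log2FC of -0.69 (interval -0.75 to -0.63).
MT1E stood out among the well-counted isoforms. It had 5420 and 2517 counts, a log2FC of -1.08 (interval -1.15 to -1.01), and after MT1M it was the lowest of the 6. MT1F had 2017 and 1065 counts, and its log2FC was -0.89 (interval -1.002 to -0.79). The intervals of MT1E, MT1F, MT1G and MT2A did not overlap each other, so the sizes of these 4 differences were apart by more than counting error.
MT1X and MT1M had fewer counts. MT1X had 534 and 322 counts, a log2FC of -0.70 (interval -0.91 to -0.50), close to that of MT1G. MT1M had 38 and 15 counts, and its log2FC of -1.26 had the widest interval of the 10, -2.28 to -0.42, so its place below MT1E was not resolved at this depth.

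**Figure D2:**
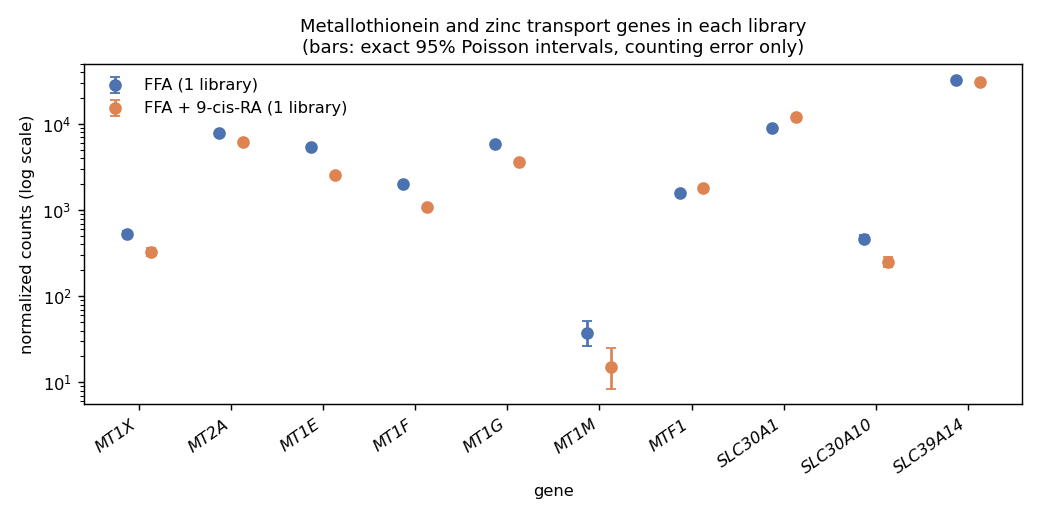
Normalized counts on a log scale (y axis) of the 10 genes (x axis) in the FFA library (blue) and the FFA + 9-cis-RA library (orange), 1 library each; bars are exact 95% Poisson intervals. The orange point is below the blue one for the 6 metallothioneins and SLC30A10, close to it for SLC39A14, and above it for MTF1 and SLC30A1.

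The remaining metallothionein genes of the family moved the same way. The family list held 11 functional genes, of which 9 were compared. All 9 were lower with a counting interval below 0, as it was for 25.7% of all compared genes, and their median was -0.89. The 3 compared genes outside the set were MT1H, MT1B and MT1A. MT1H had 674 and 198 counts, and its log2FC of -1.73 (interval -1.98 to -1.51) was the lowest of the family. MT1B had 27 and 8 counts and a log2FC of -1.61 (interval -3.08 to -0.55), and MT1A had 167 and 123 counts and one of -0.41 (interval -0.76 to -0.07). MT1H, MT1B, MT1M and MT1E were the 4 metallothioneins below -1 with the size factors used, where 4.9% of all compared genes lay. MT1E was not below -1 under the 2 alternatives named above. MT3 and MT4, which are known from brain and from stratified epithelium, had 0 counts in both libraries, which allows up to 0.0493 CPM for FFA and 0.0520 CPM for FFA + 9-cis-RA.
Added together, the functional metallothionein genes were counted 22797 times in FFA and 13955 times in FFA + 9-cis-RA, or 375 and 242 CPM. The sum in the FFA + 9-cis-RA library was 62.4% of that in the FFA library after scaling, a log2FC of -0.68 (interval -0.71 to -0.65). A sum is not affected by how fragments are assigned among the isoforms, although fragments matching several genes are left out of it. Of 10 listed metallothionein pseudogenes, 2 were compared and both were lower, as 10680 of the 20431 compared genes were. The list includes MT1HL1, annotated as protein-coding, which had 0 counts in both libraries. MT1P3 had 10 and 6 counts and an interval from -2.45 to 0.89, so its direction was not resolved. MT2P1, a processed copy of MT2A, had 278 and 173 counts and a log2FC of -0.65 (interval -0.94 to -0.38).

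The make-up of the metallothionein pool also differed. MT2A accounted for 34.8% of the metallothionein counts in the FFA library (exact 95% interval 34.2 to 35.4) and 43.6% in the FFA + 9-cis-RA library (42.7 to 44.4). MT1E accounted for 23.8% (23.2 to 24.3) and 18.0% (17.4 to 18.7), and MT1H for 2.96% (2.74 to 3.18) and 1.42% (1.23 to 1.63). The share of MT2A thus differed by 8.75 percentage points between the libraries and that of MT1E by -5.74 points.
MT1G and MT1X kept nearly the same share of the pool. MT1G had 26.3% (25.7 to 26.8) and 26.0% (25.3 to 26.7), and MT1X had 2.34% (2.15 to 2.55) and 2.31% (2.06 to 2.57), both with overlapping intervals. MT1F had 8.85% (8.48 to 9.22) and 7.63% (7.20 to 8.08).
Ratios within a library do not depend on the scaling between libraries. The ratio of MT1E to MT2A counts in the FFA + 9-cis-RA library was 0.606 times that in the FFA library (interval 0.572 to 0.643). The same quotient was 0.384 for MT1H against MT2A (interval 0.325 to 0.452), 0.689 for MT1F (0.635 to 0.748), 0.791 for MT1G (0.750 to 0.835) and 0.787 for MT1X (0.681 to 0.909). Every one of these 5 isoforms was lower relative to MT2A, MT1H by the most, while the intervals of MT1G and MT1X overlapped.

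**Figure D3:**
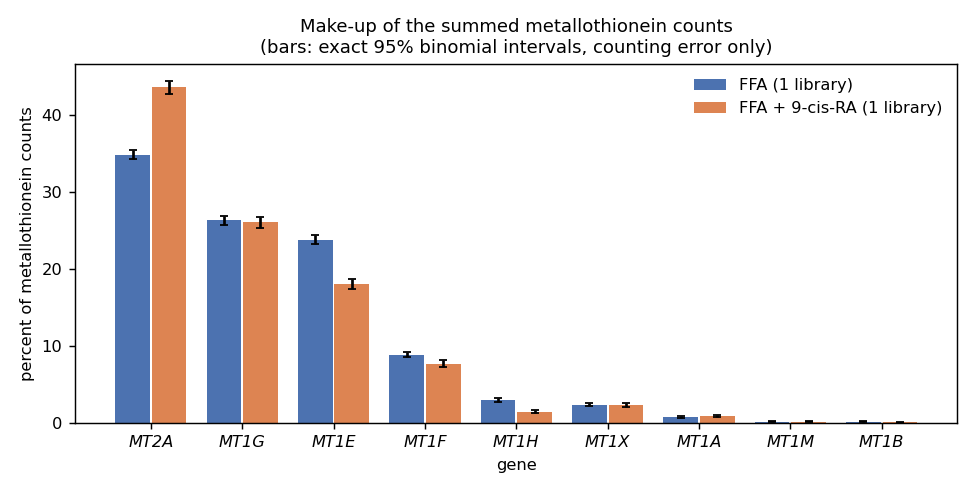
Percent of the summed metallothionein counts (y axis) taken by each gene (x axis) in the FFA library (blue) and the FFA + 9-cis-RA library (orange); bars are exact 95% binomial intervals. MT2A takes 34.8% and 43.6% of the pool and MT1E 23.8% and 18.0%, and the intervals of MT1G and MT1X overlap between the libraries.

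The metallothionein genes lie side by side on chromosome 16, in a cluster from 56565073 to 56684196 on GRCh38, 119 kb long. On the plus strand MT2A spans 56608584 to 56609497, MT1E 56625475 to 56627112, MT1M 56632659 to 56633981, MT1F 56657731 to 56660698 and MT1X 56682470 to 56684196, and MT1G lies on the minus strand at 56666731 to 56668065. No compared gene other than a metallothionein lay within the cluster. The 7 protein-coding genes compared within 250 kb on either side, a window chosen after the values were seen, were not lowered with it. Of these, 5 were higher and 2 lower, with a median of 0.11. The interval lay above 0 for 4 and below 0 for 0, beside 22.5% and 25.7% of all compared genes.
BBS2, the nearest compared coding neighbour before MT2A and a part of the ciliary BBSome, had 1554 and 1831 counts and a log2FC of 0.26. NUP93, a nuclear pore gene just after MT1X, had 3074 and 3877 counts and one of 0.36. The lowest neighbour, GNAO1, had only 8 and 2 counts, and its interval ran from -5.25 to 0.35. No flanking gene had an interval below 0, and the direction of GNAO1 was not resolved at this depth.

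**Figure D4:**
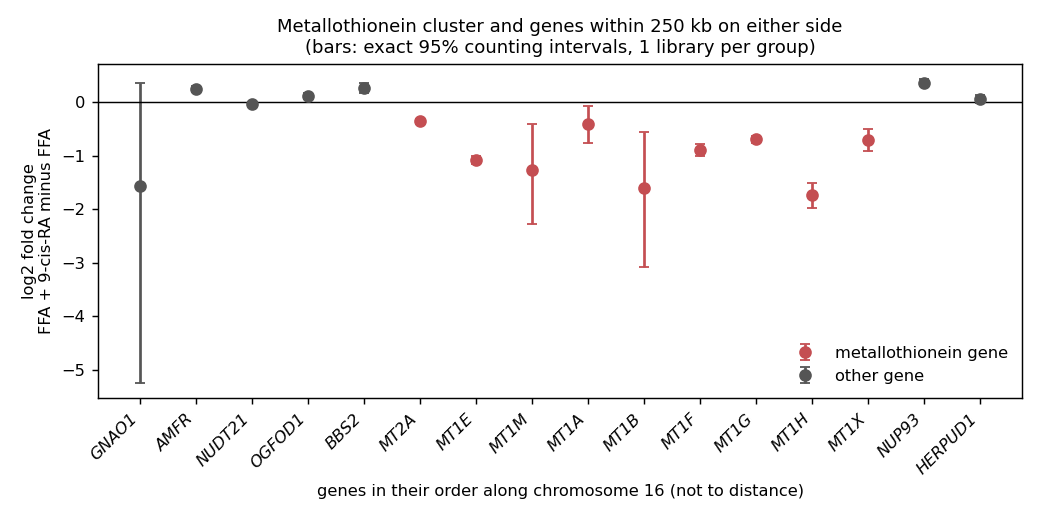
Log2 fold changes (y axis, FFA + 9-cis-RA minus FFA) of compared genes in their order along chromosome 16 (x axis, not to distance), metallothioneins in red and other genes in grey, with exact 95% counting intervals. All 9 metallothioneins are below 0, and the flanking genes lie above 0 except NUDT21 and GNAO1, whose intervals include 0.

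MTF1, the zinc sensor, differed little. It lies on chromosome 1 at 37809574 to 37859592 on the minus strand and was counted 1616 times in FFA and 1772 times in FFA + 9-cis-RA, a log2FC of 0.16 (interval 0.06 to 0.26). Its transcript was thus slightly higher where those of the metallothioneins were lower. The counts measure MTF1 transcript only, and neither zinc nor the binding of MTF1 was measured in these libraries.
SLC30A1, the plasma membrane zinc exporter ZnT1, was the highest of the 10. It lies on chromosome 1 at 211571568 to 211579161 on the minus strand and had 9079 and 11908 counts, a log2FC of 0.42 (interval 0.38 to 0.46), or 1.34-fold. SLC30A1 and the metallothioneins are both known targets of MTF1, and here they differed in opposite directions. The ratio of summed metallothionein counts to SLC30A1 counts in the FFA + 9-cis-RA library was 0.467 times that in the FFA library (interval 0.451 to 0.483). For MT2A alone against SLC30A1 the quotient was 0.584 (interval 0.559 to 0.610).

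SLC30A10 carries manganese out of the cell in spite of its place in the zinc exporter family, and SLC39A14 (ZIP14) imports zinc, manganese and iron into hepatocytes. SLC30A10, on chromosome 1 at 219685427 to 219958647 on the minus strand, had 471 and 247 counts, a log2FC of -0.90 (interval -1.13 to -0.68), which put it beside MT1F among the lowest of the set. SLC39A14, on chromosome 8 at 22367249 to 22434129 on the plus strand, had 33160 and 30881 counts, the most of the 10. Its log2FC was -0.08 (interval -0.10 to -0.05) with the size factors used and 0.02 when counts per kilobase were scaled to the same sum, so its direction depended on the scaling. It differed little on either scale. The ratio of SLC39A14 to SLC30A10 counts in the FFA + 9-cis-RA library was 1.78 times that in the FFA library (interval 1.52 to 2.08), which does not depend on the scaling.

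The transporter families did not move as a block. Of 10 SLC30 genes, 8 were compared, 4 higher and 4 lower, with a median of 0.05. The interval lay above 0 for 4 and below 0 for 2, beside 22.5% and 25.7% of all compared genes. SLC30A10 was the lowest of them, and SLC30A3 followed with 1296 and 1123 counts and a log2FC of -0.18 (interval -0.30 to -0.06). SLC30A4 was the only one above 1, at 1.22, but had 13 and 31 counts and an interval from 0.31 to 2.34. SLC30A1 was the highest of the well-counted exporters.
Of 14 SLC39 genes, 12 were compared, 8 higher and 4 lower, with a median of 0.04 and none past 1 in either direction, and the interval lay above 0 for 3 and below 0 for 4, beside the 22.5% and 25.7% of all compared genes. The lowest was SLC39A1, a plasma membrane zinc importer, which had 336 and 203 counts and a log2FC of -0.70 (interval -0.96 to -0.44). SLC39A5, a zinc importer of the basolateral membrane, had 3402 and 2493 counts and one of -0.42 (interval -0.50 to -0.35). SLC39A4, the importer of dietary zinc in the gut, had 10532 and 8644 counts and one of -0.26 (interval -0.30 to -0.22).
The higher importers were SLC39A9 at 0.26 (interval 0.20 to 0.31), SLC39A6 at 0.16 (0.09 to 0.24) and SLC39A3 at 0.09 (0.02 to 0.16). SLC39A7, which releases zinc from the endoplasmic reticulum, had 16198 and 16015 counts and a log2FC of 0.01. SLC39A10 was at 0.07 and SLC39A8 at 0.03, both with intervals that hold 0.

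**Figure D5:**
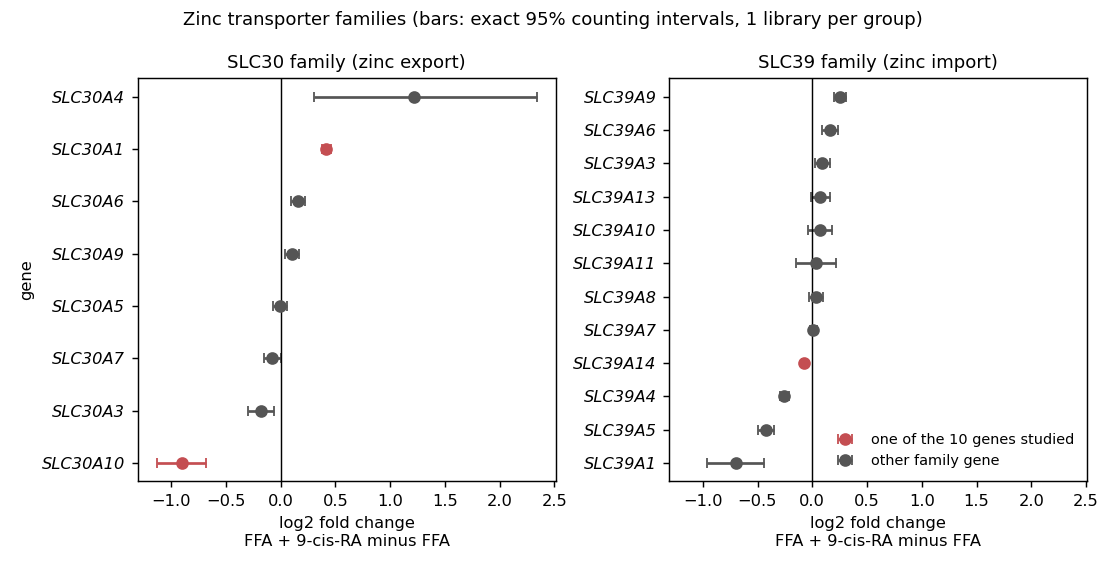
Log2 fold changes (x axis, FFA + 9-cis-RA minus FFA) of the compared SLC30 genes (left) and SLC39 genes (right), with exact 95% counting intervals; genes of the set are red. SLC30A10 at -0.90 and SLC30A1 at 0.42 lie toward opposite ends of their family, and SLC39A14 at -0.08 lies among the 4 lower genes of its own.

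Levels of different genes were compared as TPM, counts per kilobase scaled to the same sum in each library, from the counts and the gene lengths of the deposited tables. In the FFA library the order was MT2A with 414 TPM, MT1G with 380, MT1E with 245, SLC39A14 with 228, SLC30A1 with 73.4, MT1F with 51.9, MT1X with 14.7, MTF1 with 9.64, SLC30A10 with 3.89 and MT1M with 3.54. SLC30A10 (exact 95% Poisson interval 3.55 to 4.26) and MT1M (2.51 to 4.86) were the only neighbours in that order whose intervals overlapped. In the FFA + 9-cis-RA library it was MT2A with 344 TPM, MT1G with 250.2, SLC39A14 with 230.2, MT1E with 124, SLC30A1 with 104, MT1F with 29.7, MTF1 with 11.5, MT1X with 9.64, SLC30A10 with 2.21 and MT1M with 1.52. MT1E thus stood behind SLC39A14 and MT1X behind MTF1, while SLC30A10 and MT1M again overlapped. The deposited length of MT1X is 1727 bases and that of its principal transcript 450, and for SLC30A10 they are 5770 and 1915. For MT1M the deposited length, 511, is shorter than that of the principal transcript, 829. Levels per length carry this uncertainty, although MT1M was last with either length. With principal transcript lengths, an alternative chosen after seeing the data, MT1F placed before SLC30A1 and SLC30A10 before MTF1 in the FFA library. In the FFA + 9-cis-RA library those lengths put MT1X before MTF1 and SLC39A14 before MT1G, so both of these orders depend on the length used, while MT1E was behind SLC39A14 with either length.

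Genes of related metals and of stress responses were set beside the metallothioneins. Of 14 compared copper handling genes, 6 were higher and 8 lower, with a median of -0.06. COX17, a copper chaperone of cytochrome oxidase, had a log2FC of -0.46, STEAP3, a metalloreductase, one of -0.37 and STEAP2, a relative of it, one of -0.24. The log2FCs of the higher ones included SLC31A2 at 0.26, ATP7A at 0.21 and COMMD1 at 0.14. Of 8 compared manganese handling genes, which include SLC30A10 and SLC39A14, 3 were higher and 5 lower, with a median of -0.04.
Of 14 compared metal and heat stress genes, 10 were higher and 4 lower, with a median of 0.14. The interval lay above 0 for 9 and below 0 for 4, beside 22.5% and 25.7% of all compared genes. HMOX1, a heme oxygenase induced by metals and oxidants, had 7806 and 14703 counts and a log2FC of 0.94 (interval 0.90 to 0.98). The log2FC of GCLM, for glutathione synthesis, was 0.40 and that of TXNRD1, for thioredoxin reduction, 0.36. HSPB1, a small heat shock protein gene, had 6752 and 4136 counts and a log2FC of -0.68 (interval -0.74 to -0.62). The other lower ones included HSP90AA1 at -0.14 and HSF1 at -0.10, also genes of the heat shock response. Heat shock genes went both ways, since HSPA1B at 0.34, DNAJB1 at 0.25 and HSPA1A at 0.19 were higher with intervals above 0.
The last list held MTF1 itself, its partners, the glucocorticoid receptor gene NR3C1 and glucocorticoid targets, which were not summarised apart. Of its 11 compared genes 10 were higher and 1 lower, with a median of 0.16, where 9751 of all 20431 compared genes were higher. The interval lay above 0 for 9 and below 0 for 1, beside 22.5% and 25.7% of all compared genes. On the same log2FC scale DUSP1 was at 0.70, PER1 at 0.60 and ZFP36 at 0.38, and SGK1 was the lower one, at -0.57. FKBP5, also a glucocorticoid target, was at 0.06 with an interval that holds 0.

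Near-identical isoforms share sequence, and fragments matching several genes were not counted. Of the 50-base words of its principal transcript, MT1X shared 45.1% with transcripts of other genes, MT1B 21.8%, MT1H 20.4% and MT1G 14.3%. MT1M shared 7.05%, MT1A 5.76%, MT1E 5.34%, MT2A 4.89% and MT1F 3.59%, while SLC30A1, SLC30A10 and SLC39A14 shared 0. At 100 bases only MT1X, at 19.1%, MT1H and MT1B still shared any. Another gene overlapped 18.6% of MT1X exonic bases on the same strand, and a different one overlapped 30.5% of those of MT1B. By shared sequence the counts of MT1X were the least certain of the 6, and by counting error those of MT1M. The read length was not given in the sources used here.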

How the data were processed

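RNA sequencing of FFA-loaded HepG2 cells without or with 9-cis-RA was analysed from 2 libraries, 1 per group, grouped by their treatment labels. Poly(A) RNA extracted with TRIzol was made into stranded libraries. The deposited values are raw counts of fragments on exons of a gene, made by the authors with featureCounts 2.0.1 (strand setting 2, both mates mapped). It left out fragments with several possible places or genes, so near-identical isoforms are undercounted. The build is GRCh38 per the labels, and the aligner and annotation release are not given in the sources used here.

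Counts were scaled with DESeq2 version 1.42.0 size factors in R version 4.3.3, with edgeR version 4.0.16 (TMM) as an alternative. The pseudocount was 1, the minimum 10 counts over both libraries and the threshold a log2 fold change of 1. With 1 library per group no model was fitted. Intervals (95%) and floors (3 counts) cover counting error only, at totals of 60821539 and 57669670 counts. Python 3.11.15, scipy 1.17.1, pandas 2.3.3, statsmodels 0.14.6, numpy 2.4.6 and matplotlib 3.10.9 were used. Transcript words and GC content came from GENCODE release 29, and promoters from RefSeq. Fold changes and their counting intervals were tested on simulated Poisson counts, which hold no spread between cultures. The other steps were not tested in this way.

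The 10 genes and all gene lists were chosen with earlier results of these data known. The 10 genes are named throughout. From other lists, the 3 highest and the 3 lowest could be named among those reaching 100 normalized counts in 1 library, as could every metallothionein, SLC30 and SLC39 gene and CYP26A1. Marker genes given as examples, flanking genes, within-library ratios and the heat shock genes HSPA1B, DNAJB1 and HSPA1A were chosen after their values were seen. Alternatives were other scalings, pseudocounts of 0.1 and 5, no count minimum or one of 50, and removal of trends (span 0.3) on gene length, mean expression and GC content. Protein sequences were not analysed here.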

Additional observations from a re-analysis of the deposited data

How the results depend on the processing

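The 10 genes were recomputed under 11 alternatives, of which TPM scaling (counts per kilobase scaled to the same sum) was chosen after seeing the data. In 109 of 110 values the direction was that reported, and the exception was SLC39A14, at 0.015 under that scaling. That scaling moved the median of all compared genes by 0.09. MT1E ranged from -1.10 to -0.98, MT2A from -0.36 to -0.26, SLC30A1 from 0.37 to 0.51 and SLC30A10 from -0.93 to -0.81. With the gene length trend removed, or with TPM scaling, 1 gene of the 10 was below -1, since MT1E came to -0.98 and -0.99. The summed metallothionein log2 fold change was -0.63 with total counts and -0.89 without MT2A, the most counted gene. By counts without length SLC39A14 was at place 1 of the 10 in the FFA library. The share of all promoters with a metal response element was 29.6% in the window reaching 50 bases past the start and 24.8% in the 250 bases before it. Shares of all genes past each limit were not recomputed under the alternatives. No paired analysis was possible because each group has 1 library. Depth limits MT1M and MT1B, whose intervals span more than 1 on the log2 scale. The spread between cultures cannot be measured with 1 library per group, and a protocol difference between the 2 libraries cannot be told apart from the retinoid.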
